A study of Homo sapiens with 16 samples.

Results

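The genes described here are those of MHC class I antigen presentation, 9 genes chosen by name from the 54127 genes in the count files and matched by symbol to their Ensembl identifiers. They are HLA-B, HLA-C and B2M, which encode the class I chains, TAP1, TAP2 and TAPBP of the peptide loading complex, PSMB8 and PSMB9 of the immunoproteasome, and NLRC5, a transactivator of class I genes. All 9 were found in the files and all 9 passed the filter on low counts in every comparison. RNA was sequenced from HT55 and SW948, which are established human colorectal cancer cell lines grown in adherent culture with serum. Each line was given itraconazole, an azole antifungal, at 5 µM (ITRA) or its solvent DMSO (CONT), and RNA was taken at day 6. There were 4 libraries in each of the 4 groups, 16 in all, with 8269406 to 11110814 gene counts per library. Both lines are single lines, so a difference between them is between HT55 and SW948 and not between kinds of tumour. The paper states that all experiments had 4 biological replicates. The labels give replicate numbers but do not say that replicates were separate cultures, so the p-values measure only the spread between these libraries.

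Class I molecules carry short peptides to the cell surface, where CD8+ T cells read them. The proteasome cuts cytosolic proteins, with PSMB8 and PSMB9 standing in for constitutive subunits in the immunoproteasome. TAP1 and TAP2 form the transporter that moves peptides into the endoplasmic reticulum, and tapasin, encoded by TAPBP, bridges the transporter to the waiting heavy chain and B2M. Interferon gamma induces most of these genes together, through factors that include IRF1 and NLRC5.

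The class I chains, TAP1 and tapasin rose with itraconazole in both lines, while TAP2, PSMB8, PSMB9 and NLRC5 did not follow them in both. HLA-B had the largest fold change of the 9 genes in each line, 1.94-fold in HT55 and 5.59-fold in SW948. In HT55, 6 of the 9 genes rose, 1 fell and 2 were not called, where 54.0% of all genes tested were called, 27.5% rising and 26.5% falling. In SW948, 6 rose, 1 fell and 2 were not called, where 80.2% of all genes tested were called, 38.9% rising and 41.3% falling. The median log2 fold change of the 9 genes was 0.42 in HT55 and 0.75 in SW948, beside -0.02 and -0.03 over all genes tested. HLA-B, HLA-C, B2M, TAP1 and TAPBP rose in both lines, 5 of 9 genes, and 0 fell in both. Of the genes tested in both lines, 39.4% were called in the same direction, rises and falls together. The share that rose in both was not counted apart. None of the 9 was called in opposite directions, against 6.66% of those genes. Here a gene is called where its adjusted p in edgeR's quasi-likelihood test was under 0.05, and levels are CPM, the count per 1000000 gene counts after TMM scaling.

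**Figure D1:**
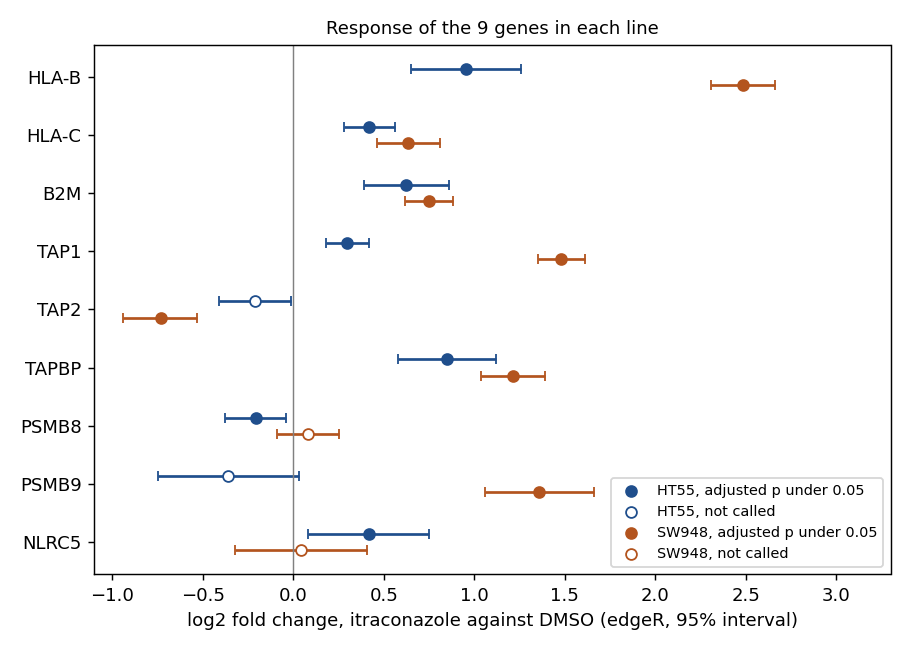
The log2 fold change of ITRA against CONT (horizontal axis) is plotted for each of the 9 genes in HT55 (blue) and SW948 (orange) with its 95% interval. Filled points passed an adjusted p of 0.05 in edgeR and open points did not. HLA-B in SW948 lies farthest right at 2.48, and TAP2 in SW948 lies farthest left at -0.73.

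The scaling and the libraries bear on these values. TMM factors were 1.17 to 1.18 in SW948 CONT against 0.87 to 0.969 in SW948 ITRA, and 1.02 to 1.03 in HT55 CONT against 0.868 to 0.97 in HT55 ITRA. On plain library totals the median over all genes moved to -0.18 in HT55 and -0.35 in SW948, and the split of rises among called genes from 51.0% to 32.6% in HT55 and from 48.5% to 31.5% in SW948. On that scale HT55 had 4 rises and 3 falls among the 9 genes, and SW948 had 6 and 2. ITRA replicate 3 of HT55 had the lowest treated level of each of the 6 genes that rose in HT55, and without it there were again 6 rises and 1 fall among the 9 genes, with 7911 in place of 6553 genes called overall. The epithelial markers EPCAM, KRT8, KRT18, CDH1, CDX2 and VIL1 summed to 7613 to 7881 CPM in HT55 CONT and 8555 to 9185 CPM in HT55 ITRA. In SW948 they summed to 4851 to 5099 CPM in CONT and 6644 to 8323 CPM in ITRA. They did not move together in SW948, where EPCAM, KRT8 and KRT18 rose and CDH1 (-0.23), CDX2 (-0.88) and VIL1 (-0.63 in log2) fell. In HT55, EPCAM, CDH1 and CDX2 rose and the others were not called. PTPRC and CD3E had 0 or 1 count in any library, and the 5 immune markers summed to 15.5 to 23.5 CPM in SW948 CONT and 109 to 112 CPM in SW948 ITRA, nearly all of it from CD68, and to 27.9 to 32.6 and 21.2 to 61.6 CPM in HT55. COL1A2 had 0 to 2 counts, and the 3 fibroblast markers summed to 2.54 to 4.69 and 9.38 to 11.5 CPM in SW948 CONT and ITRA, and to 1.30 to 2.02 and 3.14 to 3.85 CPM in HT55. CD68 rose in SW948 by 2.39 on the log2 scale and COL1A1 by 1.65. In HT55, PDGFRB rose by 1.25 (edgeR adjusted p = 0.00216), from 0.65 to 1.30 CPM up to 2.12 to 2.86 CPM, and in SW948 it was under the filter. The part of these 3 genes in the results below was not tested. In bulk RNA, a larger share of cells with a transcript and more transcript per cell cannot be told apart.

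HLA-B and HLA-C encode classical class I heavy chains and lie on the minus strand of chromosome 6, HLA-B (ENSG00000234745) at 31321649 to 31334844 and HLA-C (ENSG00000204525) at 31236526 to 31239907 in GRCh37. Their promoters are shown because the 2 chains moved by different amounts. Whether the promoters had a part in this was not tested. Each line gives the 250 bases before the start of transcription in RefSeq on GRCh38.p14, minus strand, from chr6:31357180-31357429 for HLA-B and chr6:31272093-31272342 for HLA-C. Capitals mark matches on either strand to an NF-kB site (GGG and TTCCC with any 2 bases between them), the core of a CRE (TGACG) or a Y box (CCAAT), which do not overlap here. These are reference alleles, and the alleles of the 2 lines were not read.
HLA-B: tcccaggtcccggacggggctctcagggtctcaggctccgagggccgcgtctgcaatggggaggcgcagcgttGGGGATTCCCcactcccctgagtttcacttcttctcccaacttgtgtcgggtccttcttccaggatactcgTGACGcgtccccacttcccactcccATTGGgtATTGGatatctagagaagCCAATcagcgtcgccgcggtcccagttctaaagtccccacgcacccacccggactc
HLA-C: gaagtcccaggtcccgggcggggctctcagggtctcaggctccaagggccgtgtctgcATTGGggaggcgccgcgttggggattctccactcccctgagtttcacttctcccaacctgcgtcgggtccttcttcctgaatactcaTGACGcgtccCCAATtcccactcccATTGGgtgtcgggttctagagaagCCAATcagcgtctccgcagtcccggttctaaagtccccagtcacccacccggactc
HLA-B holds the NF-kB letters at bases -177 to -168 from the start, and HLA-C does not, although 39 of 44 bases around the place are the same in both. Of 35116 human promoter windows of 250 bases before and 50 after the start, 2.17% hold the NF-kB letters, 24.6% the CRE core and 34.6% the Y box. A match of letters describes the sequence and is not a site of binding.

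In HT55, HLA-B stood at 301, 315, 288 and 314 CPM in CONT replicates 1 to 4 and at 664, 728, 430 and 549 CPM in ITRA replicates 1 to 4. All treated libraries lay above all controls, with ITRA replicate 3 the nearest to them. On the log2 scale the rise was 0.96 ± 0.137 (SE, n = 4 per group, edgeR adjusted p = 0.000263), and 1.096 without ITRA replicate 3. In SW948, HLA-B started lower, at 75.7, 63.9, 75.0 and 72.3 CPM, and reached 375, 451, 428 and 388 CPM with itraconazole. The rise of 2.48 ± 0.0808 on the log2 scale (edgeR adjusted p = 2.41e-11) meant that treated SW948 exceeded the HT55 controls and overlapped treated HT55. The response of HLA-B was larger in SW948 by 1.56 ± 0.166 on the log2 scale (edgeR interaction, adjusted p = 3.76e-07).

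HLA-C moved less than HLA-B. Control HT55 libraries read 407, 422, 411 and 386 CPM and treated ones 543, 589, 516 and 527 CPM, with no overlap and a rise of 0.42 ± 0.064 in log2 (edgeR adjusted p = 0.000406). Control SW948 libraries read 325, 300, 327 and 331 CPM and treated ones 439, 546, 574 and 479 CPM, again with no overlap, and the log2 fold change was 0.64 ± 0.0834 (edgeR adjusted p = 7.44e-06). The lines did not differ in this response at the threshold, with a difference of 0.25 on the log2 scale and a 95% interval of 0.02 to 0.47 (edgeR adjusted p = 0.0644). The call for that difference was gained without HT55 ITRA replicate 2 (adjusted p = 0.0331 in edgeR) and without SW948 ITRA replicate 1 (adjusted p = 0.0114 in edgeR). Per kilobase of transcript, the ratio of HLA-B to HLA-C within a library, which does not depend on the scaling, was 0.704 to 0.816 in HT55 CONT and 0.836 to 1.24 in HT55 ITRA, and rose from 0.214 to 0.234 in SW948 CONT to 0.749 to 0.858 in SW948 ITRA.

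Reads that align to more than one place were not counted by the authors, which touches HLA genes. Of the 50-base windows of the reference transcripts, 2.56% in HLA-B and 6.76% in HLA-C also occur in another gene, 2.02% of the HLA-B windows in HLA-C. Only exact matches to annotated transcripts of genes that do not overlap the member were counted. Near matches and the rest of the genome were not searched. The share of reads with several alignments was 26.3 to 27.1% in HT55 CONT, 24.1 to 27.9% in HT55 ITRA, 21.99 to 23.6% in SW948 CONT and 25.3 to 26.2% in SW948 ITRA. Its part in the HLA values was not tested, and the mismatches of the lines' own alleles to the reference are not known.

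B2M encodes beta 2 microglobulin, the light chain of classical class I molecules (ENSG00000166710, chromosome 15, plus strand, 45003556 to 45011049 in GRCh37). None of its 50-base windows occurs in an annotated transcript of another gene. In HT55, B2M measured 1317, 1355, 1311 and 1397 CPM in controls and 2064, 2530, 1717 and 2003 CPM with itraconazole, without overlap. The rise in log2 was 0.62 ± 0.105 (edgeR adjusted p = 0.000701). In SW948 it measured 403, 389, 397 and 380 CPM in controls and 651, 688, 649 and 710 CPM with itraconazole, 0.75 ± 0.0601 higher in log2 (edgeR adjusted p = 5.17e-08). Even treated SW948 stayed below control HT55, and the 4 groups all lay apart, in the order HT55 ITRA, HT55 CONT, SW948 ITRA and SW948 CONT. The response differed between lines by 0.15 on the log2 scale, with a 95% interval of -0.11 to 0.41 (edgeR adjusted p = 0.309). That difference passed the threshold without HT55 ITRA replicate 2, at 0.26 (edgeR adjusted p = 0.0299), and turned to -0.03 on plain library totals. Within libraries, the ratio of B2M to HLA-B per kilobase was 7.20 ± 0.175 and 5.79 ± 0.598 in HT55 CONT and ITRA, and 8.95 ± 0.657 and 2.69 ± 0.255 in SW948 CONT and ITRA (mean ± SD, n = 4).

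**Figure D2:**
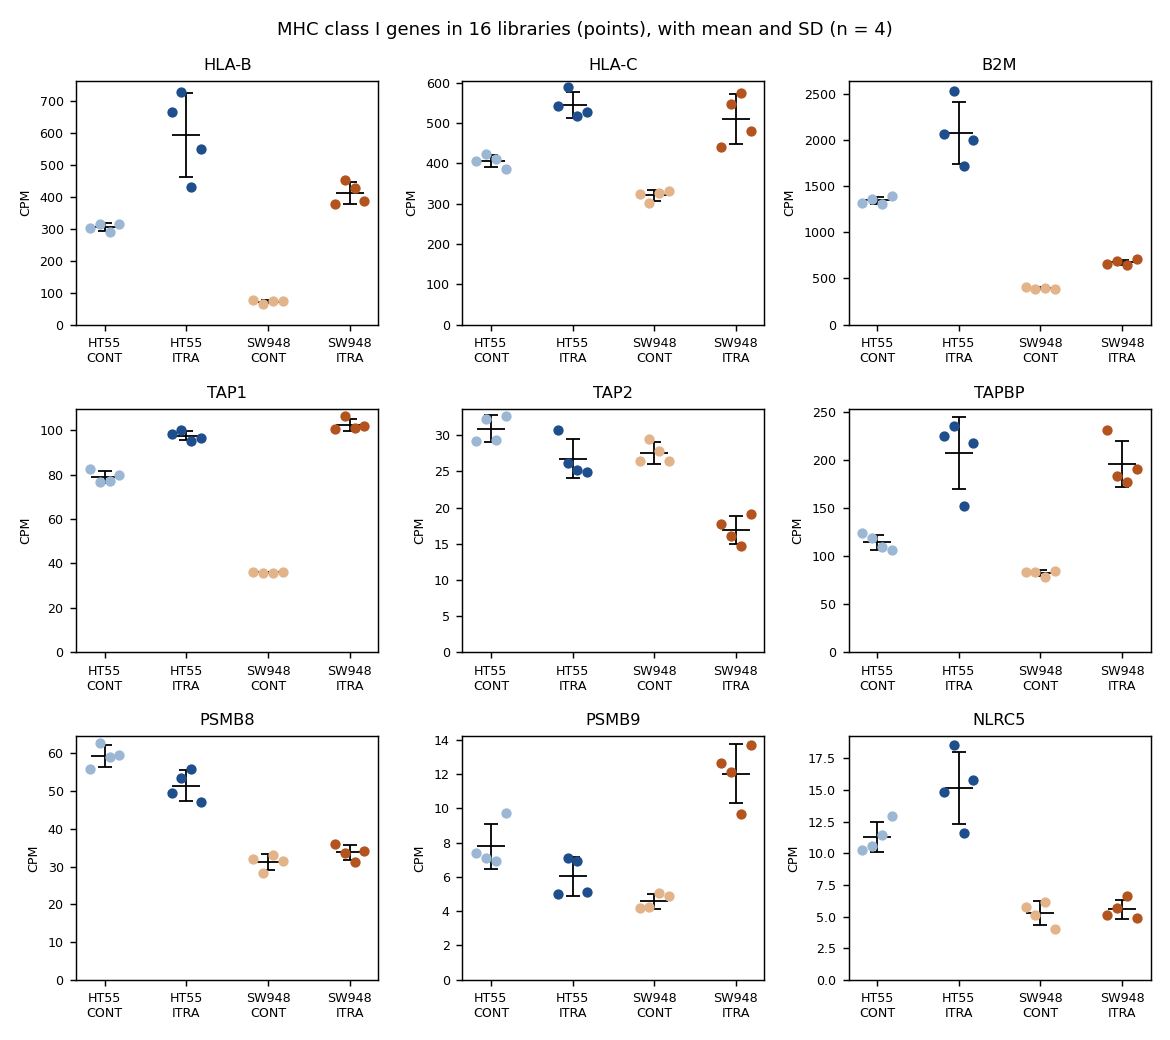
CPM of each of the 9 genes (vertical axes, from 0) is plotted for the 16 libraries in 4 groups, with the group mean and SD (n = 4). HLA-B in SW948 moved from 63.9 to 75.7 CPM up to 375 to 451 CPM, and TAP2 in SW948 moved down from 26.4 to 29.5 to 14.6 to 19.1 CPM.

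TAP1 and TAP2, the subunits of one transporter, went apart. TAP1 (ENSG00000168394, 32812986 to 32821593) and TAP2 (ENSG00000204267, 32789610 to 32806516) both lie on the minus strand of chromosome 6 in GRCh37. The annotated span of PSMB9 (ENSG00000240065, plus strand, 32811913 to 32827628 in GRCh37) takes in all of TAP1. From the RefSeq starts used here, TAP1 and PSMB9 face away from each other across a shared region. These starts lie on opposite strands, 488 bases apart in GRCh38.p14. The 250 bases before each start are shown for this reason, RefSeq on GRCh38.p14, from chr6:32853705-32853954, minus strand, for TAP1 and chr6:32853942-32854191, plus strand, for PSMB9. Capitals mark an interferon stimulated response element (GAAA and GAAA with any 2 bases between, present in 3.57% of all windows), a CRE core or a Y box on either strand.
TAP1: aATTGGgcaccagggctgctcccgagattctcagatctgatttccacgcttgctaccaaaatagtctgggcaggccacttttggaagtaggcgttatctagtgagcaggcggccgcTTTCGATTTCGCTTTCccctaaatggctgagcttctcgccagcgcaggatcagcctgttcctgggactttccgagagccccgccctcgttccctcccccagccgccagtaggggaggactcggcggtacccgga
PSMB9: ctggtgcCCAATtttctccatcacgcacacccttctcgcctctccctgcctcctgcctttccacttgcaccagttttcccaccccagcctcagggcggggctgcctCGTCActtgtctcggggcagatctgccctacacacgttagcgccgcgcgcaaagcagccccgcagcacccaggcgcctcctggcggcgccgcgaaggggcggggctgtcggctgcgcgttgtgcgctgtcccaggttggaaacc
TAP1 carries the response element as a tandem match on the opposite strand at -134 to -119, which lies outside the PSMB9 window. The PSMB9 window holds no exact match to its letters. The same element was found in windows of 4 further genes, which did not share one response. Each is shown with 10 flanking bases and the first match in capitals.
B2M: gagactctaaGAAAAGGAAActgaaaacgg
TAPBP: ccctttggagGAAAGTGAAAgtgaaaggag
TAP2: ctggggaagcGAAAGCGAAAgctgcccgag
PSMB8: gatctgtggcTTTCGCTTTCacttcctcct
These matches begin at -144 in B2M, -20 in TAPBP, -58 in TAP2 and -4 in the second of the 2 PSMB8 windows, where the letters stand on the opposite strand. B2M and TAPBP also hold an overlapping second match, from -138 and -14, shown partly in lower case. A tandem match was thus not particular to TAP1. A gamma activated site (TTC and GAA with any 3 bases between, in 7.66% of all windows) was matched in the second window of TAP1 and of PSMB8. The windows of HLA-B and HLA-C held no exact match to the letters of the response element or of the gamma activated site. Elements that depart from these letters were not searched for, so their absence from these windows is not shown. In all, 10 windows were matched for 8 of the 9 genes. NLRC5 had no window.

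TAP1 read 82.6, 76.7, 77.3 and 80.1 CPM in HT55 controls and 98.3, 100.3, 95.4 and 96.7 CPM in treated HT55. The groups did not overlap, and the log2 fold change was 0.30 ± 0.0555 (edgeR adjusted p = 0.00124). On plain library totals this call was lost, at 0.13 (edgeR adjusted p = 0.0587). In SW948, TAP1 read between 35.8 and 36.2 CPM in controls and 100.5, 106, 101 and 102 CPM in treated libraries, a 2.78-fold rise, or 1.48 ± 0.0602 in log2 (edgeR adjusted p = 1.13e-10). Treated SW948 reached the level of treated HT55, with its lowest library at 100.5 CPM beside the highest HT55 library at 100.3 CPM, although SW948 controls were the lowest of the 4 groups. The response differed between the lines by 1.21 ± 0.078 (edgeR interaction, adjusted p = 1.26e-09).

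TAP2 was not called in HT55. Its controls read 29.2, 32.3, 29.4 and 32.7 CPM and treated libraries 30.8, 26.2, 25.2 and 25.0 CPM, with overlap through ITRA replicate 1 and a change of -0.21 ± 0.0917 in log2 (edgeR adjusted p = 0.0725). Without ITRA replicate 1 the value was -0.28 (edgeR adjusted p = 0.025), and plain totals gave -0.38 (edgeR adjusted p = 0.00602). TAP2 fell in SW948 from 26.4, 29.5, 27.8 and 26.5 CPM to 17.7, 16.1, 14.6 and 19.1 CPM, with no overlap and a change of -0.73 ± 0.0964 in log2 (edgeR adjusted p = 7.52e-06). The lines differed by -0.49 ± 0.135 (edgeR interaction, adjusted p = 0.00446). The ratio of TAP1 to TAP2 per kilobase was 4.99 to 5.94 in HT55 CONT and 6.72 to 8.13 in HT55 ITRA. In SW948 it was 2.55 to 2.87 in controls and 11.2 to 14.5 with itraconazole, so both lines' treated libraries lay above their controls on a measure free of library scaling. TAP1 and TAP2 share 31 of their 50-base windows, 1.18% of those of TAP1 and 0.55% of those of TAP2.

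TAPBP (ENSG00000231925, chromosome 6, minus strand, 33267471 to 33282061 in GRCh37) rose in both lines. HT55 controls read 124, 119, 109 and 107 CPM and treated libraries 225, 236, 152 and 217 CPM, where replicate 3 again lay nearest the controls without overlap. This was a rise of 0.85 ± 0.122 in log2 (edgeR adjusted p = 0.000264), and 0.99 without that replicate. SW948 controls read 83.0, 83.4, 78.5 and 84.9 CPM and treated libraries 231, 184, 177 and 191 CPM, 1.22 ± 0.0812 higher in log2 (edgeR adjusted p = 8.42e-09). The larger rise in SW948, by 0.39 ± 0.154 (edgeR interaction, adjusted p = 0.0384), depended on single libraries. It missed the threshold in 9 of the 16 fits that left out 1 library, those without HT55 CONT replicates 1 or 2, HT55 ITRA replicate 3, any SW948 CONT replicate, or SW948 ITRA replicates 1 or 4, with values from 0.26 to 0.40, and with plain totals, at 0.21 (edgeR adjusted p = 0.253). Of the TAPBP windows of 50 bases, 7.59% also occur in other genes.

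The immunoproteasome subunits PSMB8 (ENSG00000204264, chromosome 6, minus strand, 32808494 to 32812456 in GRCh37) and PSMB9 also went apart in SW948. In HT55 both had negative log2 fold changes. PSMB8 read 55.9, 62.8, 59.1 and 59.4 CPM in HT55 controls and 49.4, 53.5, 56.0 and 47.0 CPM in treated HT55, where 1 treated library reached the lowest control. The change in log2 was -0.21 ± 0.0768 (edgeR adjusted p = 0.0408). The call was lost in 6 of 8 fits that left out 1 library, those without any of the CONT replicates or without ITRA replicates 1 or 4, where values ran from -0.16 to -0.22, and in the DESeq2 Wald test, at an adjusted p of 0.0521. In SW948 the controls read 32.0, 28.3, 33.1 and 31.4 CPM and treated libraries 36.1, 33.7, 31.3 and 34.1 CPM. These overlapped and were not called, with a log2 fold change of 0.08 and a 95% interval of -0.09 to 0.25 (edgeR adjusted p = 0.345), which became -0.24 on plain library totals (edgeR adjusted p = 0.0289). The lines differed by 0.32 ± 0.109 (edgeR interaction, adjusted p = 0.0179), a difference not called on plain totals at 0.13 (edgeR adjusted p = 0.423).

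PSMB9 was scarce, with 41 to 126 counts per library. In HT55 it read 7.36, 7.10, 6.90 and 9.73 CPM in controls and 4.99, 7.08, 6.95 and 5.10 CPM with itraconazole. The groups overlapped and the log2 fold change of -0.36 ± 0.178 was not called (edgeR adjusted p = 0.111), but passed on plain library totals, at -0.52 (edgeR adjusted p = 0.0308). In SW948 it rose from 4.17, 4.26, 5.04 and 4.86 CPM to 12.6, 12.1, 9.67 and 13.7 CPM, a 2.57-fold rise, or 1.36 ± 0.141 in log2 (edgeR adjusted p = 6.96e-07). The response differed between the lines by 1.75 ± 0.229 (edgeR interaction, adjusted p = 3.86e-06). Per kilobase, PSMB9 stood at 0.144 to 0.171 of PSMB8 in SW948 CONT and 0.341 to 0.443 in SW948 ITRA, while in HT55 the ranges of 0.125 to 0.181 and 0.112 to 0.146 overlapped. PSMB8 and PSMB9 share 139 exonic bases on opposite strands, and the antisense gene PSMB8-AS1, with 253 counts over the 16 libraries, overlaps both and TAP1. Whether the counting used strand is not given in the sources used here, so reads from these stretches cannot be assigned with certainty.

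TAP1 and PSMB9, whose RefSeq starts lie on either side of the shared region, rose by 2.78 and 2.57-fold in SW948. Their ratio per kilobase was 2.69 to 3.27 in SW948 CONT and 2.82 to 3.96 in SW948 ITRA, which overlap. In HT55 the ratio was 3.12 to 4.25 in controls and 5.20 to 7.47 with itraconazole, which do not.

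**Figure D3:**
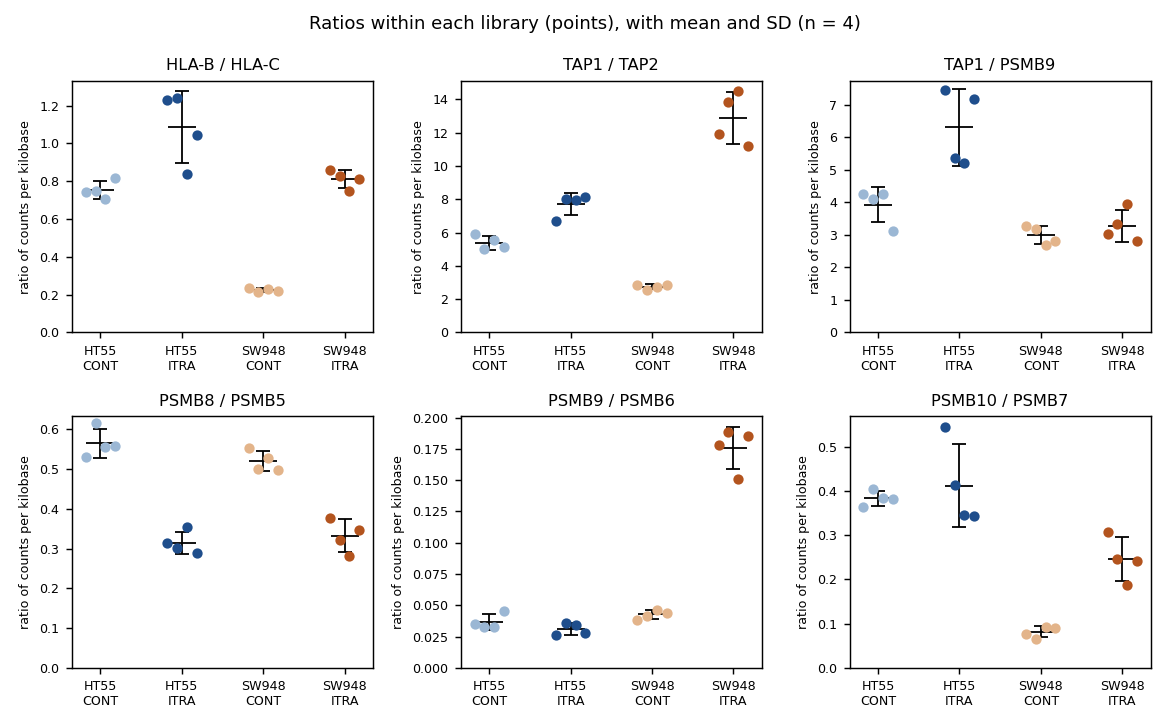
Ratios of counts per kilobase of transcript (vertical axes, from 0) are plotted for 6 gene pairs within each of the 16 libraries, with the group mean and SD (n = 4). TAP1 over TAP2 moved from 2.55 to 2.87 up to 11.2 to 14.5 in SW948, and PSMB8 over PSMB5 moved down in both lines. Such ratios do not depend on library scaling, and the pairs were chosen after the values were seen.

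NLRC5, which drives transcription of class I genes (ENSG00000140853, chromosome 16, plus strand, 57023397 to 57117443 in GRCh37), did not accompany the rise of class I in SW948. There it read 5.78, 5.11, 6.17 and 4.01 CPM in controls and 5.11, 5.68, 6.62 and 4.86 CPM in treated libraries, with a log2 fold change of 0.04 and a 95% interval of -0.32 to 0.41 (edgeR adjusted p = 0.823), where plain totals gave -0.29 (edgeR adjusted p = 0.134). In HT55 it read 10.3, 10.6, 11.5 and 12.9 CPM in controls and 14.8, 18.5, 11.6 and 15.8 CPM in treated libraries, where ITRA replicate 3 fell within the control range. The log2 fold change of 0.42 ± 0.15 was called (edgeR adjusted p = 0.0367). It was not called on plain totals, at 0.25 (edgeR adjusted p = 0.146), nor without CONT replicates 1, 2 or 3 or ITRA replicates 1, 2 or 4, where values ran from 0.31 to 0.43. The difference between the lines was not called, at -0.35 with a 95% interval of -0.83 to 0.14 (edgeR interaction, adjusted p = 0.224), and passed on plain totals at -0.53 (edgeR adjusted p = 0.0468).

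Over the 9 genes, the response was more positive in SW948 for HLA-B, TAP1, TAPBP, PSMB8 and PSMB9, more negative for TAP2, and not called for HLA-C, B2M and NLRC5. These 6 of 9 calls stand beside 53.9% of all genes tested, 24.8% positive and 29.1% negative. On plain library totals 3 were positive, those of HLA-B, TAP1 and PSMB9, and 2 negative, those of TAP2 and NLRC5. The groups of 4 libraries did not overlap for 5 of the 9 genes in HT55, all higher with itraconazole, where 49.4% of all genes tested had groups apart. In SW948 they did not overlap for 7 of 9 genes, 6 higher and 1 lower, where 74.7% of all genes had groups apart.

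In the DMSO controls, collected at day 6 like the treated cells, most of the 9 genes were lower in SW948 than in HT55. Control libraries of SW948 were below those of HT55 in 8 of 9 genes by the edgeR test and none was above, where 75.9% of all genes were called, 38.2% higher and 37.7% lower in SW948. The same 8 genes had control groups that did not overlap, beside 78.0% of all genes. HLA-B differed most, by -2.08 ± 0.122 on the log2 scale (edgeR adjusted p = 6.84e-12), which is 4.24-fold. B2M followed at -1.78 ± 0.0902 (edgeR adjusted p = 7.77e-13), TAP1 at -1.14 ± 0.0563 (edgeR adjusted p = 5.25e-13) and NLRC5 at -1.103 ± 0.163 (edgeR adjusted p = 4.4e-06). PSMB8, PSMB9, TAPBP and HLA-C were lower by smaller amounts, from -0.93 to -0.34. TAP2 was not called, at -0.17 with a 95% interval of -0.36 to 0.03 (edgeR adjusted p = 0.107), and took the other sign, 0.03, on plain library totals. These 8 calls held on plain totals as well, where the median over all genes stood at 0.20.

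On the TMM scale the order of the 4 groups differed between genes, and for B2M and TAP1 all 4 lay apart. The treated groups of TAP1 were barely apart, with 100.3 CPM the highest in HT55 and 100.5 CPM the lowest in SW948. On plain library totals they overlapped, at 87.0 to 92.4 in HT55 and 87.9 to 97.3 in SW948. HLA-B, HLA-C and TAPBP were highest in treated HT55 and treated SW948, which overlapped, then in HT55 controls, and lowest in SW948 controls. For TAP2, both control groups and treated HT55 overlapped in turn and only treated SW948 lay apart, below them. PSMB8 and NLRC5 split by line, with both HT55 groups above both SW948 groups and overlap between treated and control within each line. For PSMB9, each group overlapped its neighbour in the order of means, which ran from 12.0 CPM in treated SW948 to 4.58 CPM in SW948 controls. On the per-kilobase scale of the canonical transcripts, B2M was the highest of the 9 in all 4 groups, at 416 to 2204 CPM per kilobase as group means, and NLRC5 the lowest at 0.777 to 2.24. With all annotated exons as the length, HLA-C ranked above B2M in SW948 CONT.

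The other genes of the pathway were taken from 6 lists of 39 genes in all. In HT55, 31 were tested, of which 10 rose, 10 fell and 11 were not called. In SW948, 32 were tested, of which 16 rose, 8 fell and 8 were not called. Of all genes tested, 54.0% were called in HT55 (27.5% rising, 26.5% falling) and 80.2% in SW948 (38.9% rising, 41.3% falling). The counts of each list below stand beside these same shares. The median log2 fold change of the listed genes was 0.04 in HT55 and 0.16 in SW948, beside -0.02 and -0.03 over all genes tested.

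Among further class I chains, 2 of 3 tested genes rose in HT55 and 4 of 4 in SW948. HLA-E, a ligand of the NKG2A receptor, rose by 0.98 on the log2 scale in HT55 (edgeR adjusted p = 0.000552) and 1.59 in SW948 (edgeR adjusted p = 4.51e-10). MICA, a stress-induced ligand of the NKG2D receptor that needs neither B2M nor peptide, rose from 6.47 to 8.42 CPM to 11.9 to 19.8 CPM in HT55 and from 4.69 to 7.06 CPM to 37.5 to 63.9 CPM in SW948. Its log2 fold changes were 1.14 ± 0.171 (edgeR adjusted p = 0.00036) and 3.14 ± 0.177 (edgeR adjusted p = 1.66e-09), and their difference was 2.04 ± 0.266 (edgeR interaction, adjusted p = 3.59e-06). MICB, its close relative, was under the filter in HT55 and rose by 3.65 in SW948 (edgeR adjusted p = 9.53e-10).

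Of the 7 genes in the proteasome list, HT55 showed 1 rise and 2 falls and SW948 4 rises and 2 falls. PSMB10, the third immunoproteasome subunit, was not called in HT55, at -0.14 (edgeR adjusted p = 0.392), and rose by 0.89 ± 0.154 in SW948 (edgeR adjusted p = 0.000109). PSMB5, the constitutive counterpart of PSMB8, rose by 0.64 in HT55 (edgeR adjusted p = 2.33e-05) and 0.74 in SW948 (edgeR adjusted p = 3.36e-07). PSMB6 and PSMB7, the counterparts of PSMB9 and PSMB10, fell in SW948 by 0.69 (edgeR adjusted p = 4e-07) and 0.71 (edgeR adjusted p = 2.69e-07) on the log2 scale. In HT55, PSMB7 also fell, at -0.23 (edgeR adjusted p = 0.0066), and PSMB6 was at -0.14 (edgeR adjusted p = 0.071), called on plain totals (-0.30, edgeR adjusted p = 0.00333) and without ITRA replicate 3 (-0.149, edgeR adjusted p = 0.0288). Within libraries, PSMB8 over PSMB5 per kilobase was 0.530 to 0.616 in HT55 CONT and 0.289 to 0.354 in HT55 ITRA, and 0.499 to 0.552 and 0.280 to 0.378 in SW948, lower with itraconazole in both lines without overlap. PSMB9 over PSMB6 moved the other way in SW948, from 0.0386 to 0.0464 up to 0.151 to 0.189, as did PSMB10 over PSMB7, from 0.0654 to 0.0916 up to 0.187 to 0.307. The activator subunits PSME1 and PSME2 were at -0.13 (edgeR adjusted p = 0.08) and -0.47 (edgeR adjusted p = 0.000328) in HT55, and at 0.28 (edgeR adjusted p = 0.000344) and 0.01 (edgeR adjusted p = 0.923) in SW948. On plain totals PSME1 was a called fall in HT55, at -0.295 (edgeR adjusted p = 0.00282), and not called in SW948, at -0.055 (edgeR adjusted p = 0.416), while PSME2 was a called fall in SW948, at -0.32 (edgeR adjusted p = 0.00254).

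Of 6 loading and trimming genes, HT55 showed 2 rises and 3 falls and SW948 1 rise and 2 falls. TAPBPL, which encodes the tapasin relative TAPBPR, fell in both lines while TAPBP rose, by 0.93 in HT55 (edgeR adjusted p = 0.00368) and 1.23 in SW948 (edgeR adjusted p = 4.24e-05) on the log2 scale. CALR, the chaperone calreticulin, rose by 0.26 in HT55 (edgeR adjusted p = 0.0339) and 0.38 in SW948 (edgeR adjusted p = 0.000175), and neither call held on plain library totals, at 0.09 and 0.05. In HT55 its groups overlapped, and the call was lost without any of the CONT replicates or without ITRA replicates 1 or 2, where values ran from 0.18 to 0.28.

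Among 10 transactivation genes, HT55 showed 4 rises and 4 falls and SW948 3 rises and 4 falls. IRF1, an interferon-induced activator of class I genes, fell from 62.6 to 66.9 CPM to 33.9 to 48.9 CPM in HT55 (log2 fold change -0.68, edgeR adjusted p = 0.000592) and from 20.9 to 24.6 CPM to 16.4 to 19.4 CPM in SW948 (-0.36, edgeR adjusted p = 0.00298). IRF2, which binds the same element as IRF1, rose from 20.6 to 23.6 CPM to 33.9 to 44.1 CPM in HT55 (0.92, edgeR adjusted p = 5.34e-05) and from 25.2 to 29.8 CPM to 86.7 to 93.6 CPM in SW948 (1.70, edgeR adjusted p = 1.2e-10). RFXAP, a subunit of the RFX complex, fell by 1.36 in HT55 (edgeR adjusted p = 0.00016) and 2.96 in SW948 (edgeR adjusted p = 1.62e-08) on the log2 scale. The treated libraries lay apart from the controls for IRF1 and IRF2 in both lines, in opposite directions.

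In the interferon gamma receptor list, 1 rose and 1 fell of 4 tested genes in HT55, and 3 of 4 rose in SW948. IFNGR2 rose by 0.96 in SW948 (edgeR adjusted p = 1.05e-08). In HT55 its groups overlapped, and the rise of 0.60 (edgeR adjusted p = 0.0334) lost its call on plain totals, at 0.42, and in 7 of 8 fits that left out 1 library, all but that without ITRA replicate 3, with values from 0.40 to 0.62. Of the class II list, HLA-DMA alone passed the filter and rose in SW948, from 1.89 to 2.43 CPM up to 5.03 to 7.69 CPM, and was not called in HT55. CIITA, the class II transactivator, had 0 to 4 counts in any library and HLA-DRA 0 or 1.

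**Figure D4:**
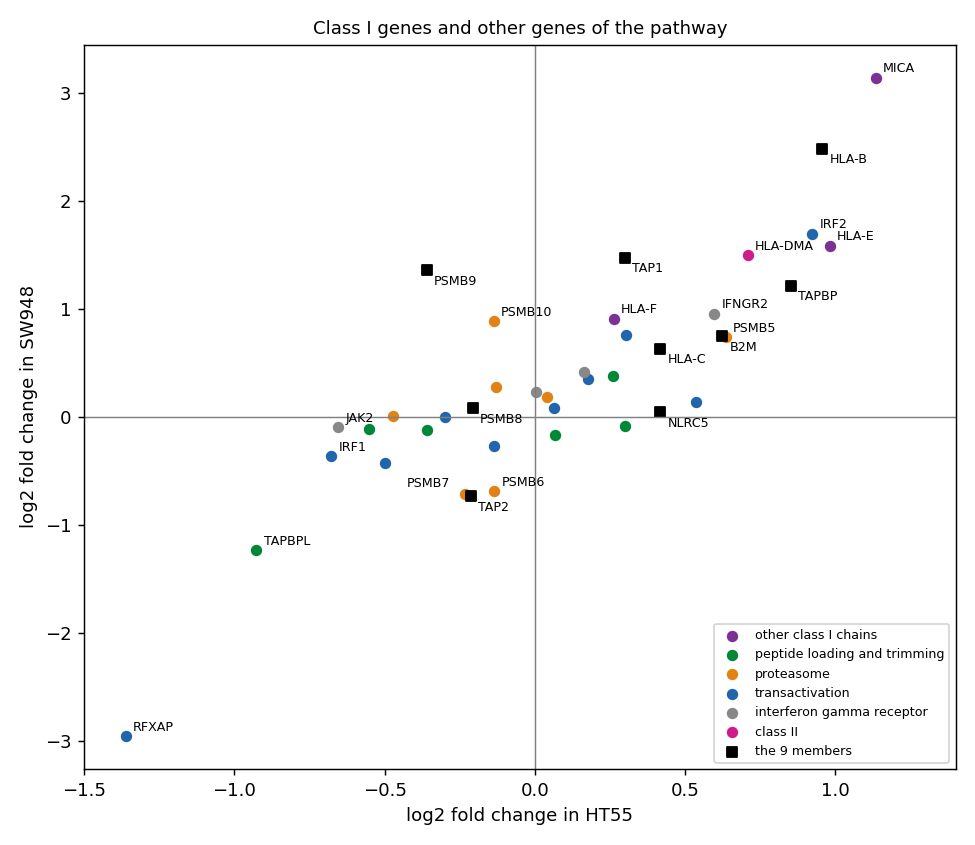
The log2 fold change in SW948 (vertical axis) is plotted against that in HT55 (horizontal axis) for the 9 genes (black squares) and 31 other genes of the pathway tested in both lines (circles, coloured by list). MICA lies at the upper right at 1.14 and 3.14, RFXAP at the lower left at -1.36 and -2.96, and PSMB9 left of the vertical line at -0.36 and 1.36.

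Over all 16 libraries, the pattern of TAP1 was most like that of MORF4L1, CD9, NSDHL, PPP1R15B and ACSS2, with Pearson r of log2 CPM from 0.985 to 0.992 among 13248 other genes. HLA-B ranked 25 in that order (r = 0.973), HLA-C 328 (r = 0.903), TAPBP 456 (r = 0.881) and B2M 1523 (r = 0.711). PSMB9 followed at 1625 (r = 0.696), NLRC5 at 2968 and PSMB8 at 3058, and TAP2 was at 9456 (r = -0.407). The 16 libraries fall into 4 groups, so these values describe the order of group levels and are not tests.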

How the data were processed

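RNA from 16 libraries was sequenced by the authors as single-end 50-base TruSeq reads and aligned to hg19. The deposited files hold raw counts per Ensembl gene, not normalised, with 5 totals of reads outside genes, which were left out. The submitters' processing notes name TopHat, HTSeq and DESeq. Versions, the annotation release and strand settings are not given in the sources used here. HTSeq sets reads with several alignments apart. Symbols and coordinates came from GENCODE on GRCh37. A symbol was found for 47098 of 54127 identifiers.

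Counts were tested with edgeR 4.0.16 (quasi-likelihood test, TMM, filterByExpr, no covariate) in R 4.3.3, on 8 libraries per line, and on all 16 for the interaction and the comparison of controls. Benjamini-Hochberg adjustment ran over all genes tested: 12133 in HT55, 12505 in SW948 and 13249 over both lines. The SE is the log2 fold change divided by the square root of F. DESeq2 1.42.0, plain library totals, other filters, a replicate block and leaving out each library were alternatives. The test was checked on simulated counts. Ratios and levels between genes used the canonical transcript's length. Shared windows and promoter motifs were read from reference sequence by exact match. Counts carry no molecular identifiers. The members and lists were chosen with earlier results of these data known. Named genes were the 9 members, and for each other list the called gene that rose most and fell most per line, with PSMB5, PSMB6, PSMB7, PSMB10, PSME1, PSME2 and IRF1, the 5 genes most like TAP1 and genes overlapping a member. HLA-E, CIITA, HLA-DRA and the marker genes named were added outside this rule, after their values were seen. Some items of these lists are not reported here.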

Additional observations from a re-analysis of the deposited data

Results flagged for a closer look

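The response to itraconazole differed between HT55 and SW948 for 6 of the 9 genes in the interaction test of edgeR over all 16 libraries, beside 53.9% of all genes tested. The log2 fold change in SW948 minus that in HT55 was 1.556 for HLA-B, 1.206 for TAP1, 1.746 for PSMB9, 0.391 for TAPBP and 0.32 for PSMB8, and -0.493 for TAP2. For PSMB9 the fold changes themselves had opposite signs, and only the rise in SW948 was called. The differences of TAPBP and PSMB8 were not called on plain library totals.

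One library stood apart from its group in 1 of 36 sets of 4 libraries examined. PSMB9 in HT55 CONT replicate 4 read 9.73 CPM, where the other controls read 6.90 to 7.36 CPM, so that the gap took 0.836 of the group's range, past the 95% critical value of Dixon's test. By chance about 1 in 20 such sets would pass. The fold change of PSMB9 in HT55 ran from -0.44 to -0.23 over the fits that left out 1 library, and was called in none of them.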

How the results depend on the processing

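Settings tried left the calls of HLA-B, HLA-C, B2M and TAPBP within each line past the threshold, with the exception of a minimum absolute log2 fold change of 1, under which HLA-B and TAPBP kept theirs in SW948. That minimum left 1169 genes called in HT55 and 4001 in SW948, with 0 of the 9 genes risen in HT55, 4 risen in SW948 (HLA-B, TAP1, TAPBP and PSMB9) and 0 fallen in either line. Plain library totals gave 3 fallen genes in HT55 and 2 in SW948 in place of 1, and 3 positive and 2 negative interactions in place of 5 and 1. The sign turned in SW948 for PSMB8 (-0.244), NLRC5 (-0.288), PSME1 (-0.055) and PSME2 (-0.32), in the interaction for B2M (-0.033), PSMB5 (-0.063) and CALR (-0.037), and between controls for TAP2 (0.03). The change in scale is the only difference in that setting. PSME2 in SW948 also turned with no filter (-0.015) and with at least 10 counts in every library (-0.033). With the DESeq2 Wald test and with no filter, 0 of the 9 genes fell in HT55. The interaction of PSMB8 was not called with no filter, and that of HLA-C was called with DESeq2 size factors, the DESeq2 Wald test and at least 10 counts in every library. The cause was not tested. Fits without 1 library gave 0 to 1 fallen genes in HT55, and from -0.076 to 0.119 for NLRC5 and -0.017 to 0.046 for PSME2 in SW948.

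Groups use the same numbers for their replicates, but same-numbered libraries deviated together with correlations of -0.0311 to 0.131 in HT55 and -0.00156 to 0.134 in SW948, not all over 0.1, and 3 of the 8 correlated best with their own number. With the replicate block, 6300 genes were called in HT55 and 9973 in SW948, and 0 of the 9 genes fell in HT55, as PSMB8 had an adjusted p of 0.0536 in edgeR. No other call of the 9 genes changed with the block. Depth limits PSMB9 and NLRC5 most, at 41 to 157 counts per library.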
